A study of Mus musculus with 8 samples.

Results

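The genes described here are 35 mouse counterparts of genes that give their names to loci associated with type 2 diabetes in human genome-wide association studies. They were taken by name, and all 35 were found among the 21887 protein-coding genes that the RefSeq annotation of mouse build GRCm38.p6 places on a chromosome. A peak was counted for a gene when its centre lay inside the gene span or within 50 kb of either end, a stretch called the window below. By role, 10 act in transcription and chromatin, 11 are receptors, a channel or signalling proteins, 3 modify or bind RNA, and 11 serve trafficking, cell division, proteolysis or other functions.

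A locus found by association is a stretch of the genome in which common variants differ in frequency between people with and without the disease, and it is usually named after a nearby gene that need not be the one affected. Many of these loci are thought to act in the pancreatic beta cell, the cell that makes and secretes insulin. PDX1 is a homeodomain factor needed for pancreas formation and for the mature beta cell. BMAL1 and CLOCK form the heterodimer that drives the circadian clock and bind the E-box, whose canonical letters are CACGTG. H3K4me2 marks promoters and enhancers, H3K27ac marks the active ones among them, and H2A.Z is a histone variant placed at many promoters and regulatory elements.

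Chromatin immunoprecipitation sequencing (ChIP-seq) was done in Beta-TC6 cells, an insulin-secreting mouse line derived from a beta-cell tumour of a mouse carrying a viral T antigen under an insulin promoter. Cells were untreated and harvested at confluence after DSG and formaldehyde crosslinking. Each of 6 targets was measured in 1 library, namely the factors PDX1, BMAL1 and CLOCK, the histone marks H3K27ac and H3K4me2 and the variant H2A.Z, with 2 pooled inputs as background, so no value has a replicate and no test between conditions was possible. All results come from 1 transformed line in 1 state, and time of day was not compared.

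Library depth ran between 12892080 tags (BMAL1) and 26678241 tags (H3K4me2). The authors' lists held 4125 BMAL1, 1378 CLOCK and 34883 PDX1 peaks, and 41140 H3K4me2, 29735 H3K27ac and 26455 H2A.Z intervals. Only 0.16% of CLOCK tags and 0.48% of BMAL1 tags lay in peaks, against 4.32% of PDX1 tags. Where BMAL1 or CLOCK has no listed peak, none was detected in that 1 library, and whether binding was absent was not tested. As a check of the line, 10 of 10 beta-cell genes (among them Ins1, Ins2 and Mafa) had PDX1 and H3K27ac in their windows, and 6 of 6 with a listed start had H3K27ac at it. Of 8 genes of other cell types (among them Alb, Myod1 and Gfap), 4 had PDX1 and 5 had H3K27ac in their windows, but 1 of 6 with a listed start had H3K27ac at it. All 10 clock genes had both a BMAL1 and a CLOCK peak.

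The loci carried PDX1 and histone marks far more often than clock-factor peaks, and so did other protein-coding genes. Every one of the 35 genes had H3K4me2 in its window, 30 had H3K27ac, 29 had H2A.Z and 28 had PDX1, whereas 14 had BMAL1 and 5 had CLOCK. Among all 21852 other genes, 58.1% had PDX1, 21.2% had BMAL1 and 13.1% had CLOCK. The lists held 34883 PDX1, 4125 BMAL1 and 1378 CLOCK peaks, and whether their lengths account for this order was not tested. Long genes collect more peaks, so each gene was set beside the 200 other protein-coding genes nearest to it in span, counted as 7000 pairs of a locus gene and a comparison gene (5285 different genes). H3K4me2 was present at all of the locus genes, 91.9% of these genes of like span and 81.1% of all 21852 other genes. H3K27ac was present at 85.7%, against 83.9% of genes of like span and 73.0% of all others, and H2A.Z at 82.9%, against 84.2% and 72.7%. PDX1 was present at 80.0% of the locus genes, 77.3% of genes of like span and 58.1% of all others. Counted in this way, the PDX1 share stood above that of all genes and close to that of genes of like span. The contrast depended on how peaks were given to genes. Each peak was then counted only for its nearest gene. PDX1 was at 77.1% of the locus genes, 63.5% of genes of like span and 33.9% of all others. H2A.Z was at 80.0%, 68.5% and 46.4%. The shares of locus genes and genes of like span were 34.3% and 23.5% for BMAL1 and 11.4% and 8.67% for CLOCK. For H3K4me2 they were 97.1% and 84.4%, and for H3K27ac 80.0% and 70.0%. Under this count the shares of all 6 targets stood above those of genes of like span, for CLOCK with 4 of 35 genes. The comparison genes were matched for span and not for distance to neighbouring genes, and these differences were not tested.

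BMAL1 was present at 40.0% of the locus genes, 31.5% of genes of like span and 21.2% of all others. CLOCK was present at 14.3%, against 14.6% of genes of like span and 13.1% of all others. By windows, the CLOCK share was thus at the background, and by nearest gene it was 11.4% against 8.67%. The BMAL1 contrast depended on how the list was cut. Among peaks with a fold over input of at least 8, BMAL1 was at 17.1% of the locus genes and 22.1% of genes of like span. This cut removed the highest-scoring BMAL1 peak of the windows (Vps26a, score 38, fold 4.59). The window peaks it kept all scored 13 or 14, such as that of Grb14 (fold 32.75). With the upper 50% of each list by score, BMAL1 was at 7 of 35 genes, against 20.4% of genes of like span. With a score of at least 20, it was at 2 genes (5.71%, against 2.89%). Of the 20 BMAL1 peaks in the windows, 13 (65.0%) had the authors' score of 13 or 14, the lowest in the list, against 68.1% of the whole list. Of the 35 genes, Prc1 and Vps26a had both clock factors. The window of Prc1 alone held BMAL1, CLOCK and PDX1, all nearest to its neighbour Rccd1. The shares of genes of like span with both clock factors or with all 3 factors were not counted.

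**Figure D1:**
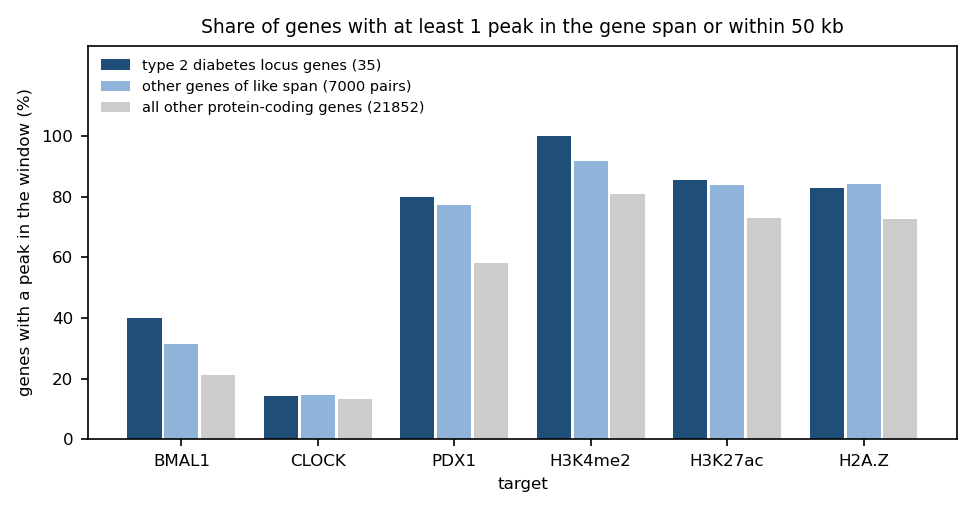
Share of genes (%, vertical axis) with at least 1 peak in the gene span or within 50 kb, for the 35 type 2 diabetes locus genes, for other genes of like span and for all other protein-coding genes, by target. The bars of the locus genes and of genes of like span lie close for CLOCK (14.3% and 14.6%) and PDX1 (80.0% and 77.3%), and both PDX1 bars stand above that of all other genes (58.1%).

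The median number of peaks per window was 2 for PDX1 at the locus genes, 2 at genes of like span and 1 at all other genes, and 4, 3 and 2 for H3K27ac. Single genes had 0 to 46 PDX1 peaks, 1 to 18 H3K4me2 intervals and 0 to 17 H3K27ac intervals, in windows of 102 to 854 kb. The 5 genes with most PDX1 peaks, Dgkb, Cdkal1, Glis3, Fto and Tle4, held 104 of the 168 pairs of a gene and a PDX1 peak (61.9%). These counts are described below by the roles of the genes. Shares of genes of like span were not computed by role, and differences between roles were not tested. For all roles together, genes of like span had PDX1 at 77.3%, H3K27ac at 83.9%, BMAL1 at 31.5% and CLOCK at 14.6%.

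**Figure D2:**
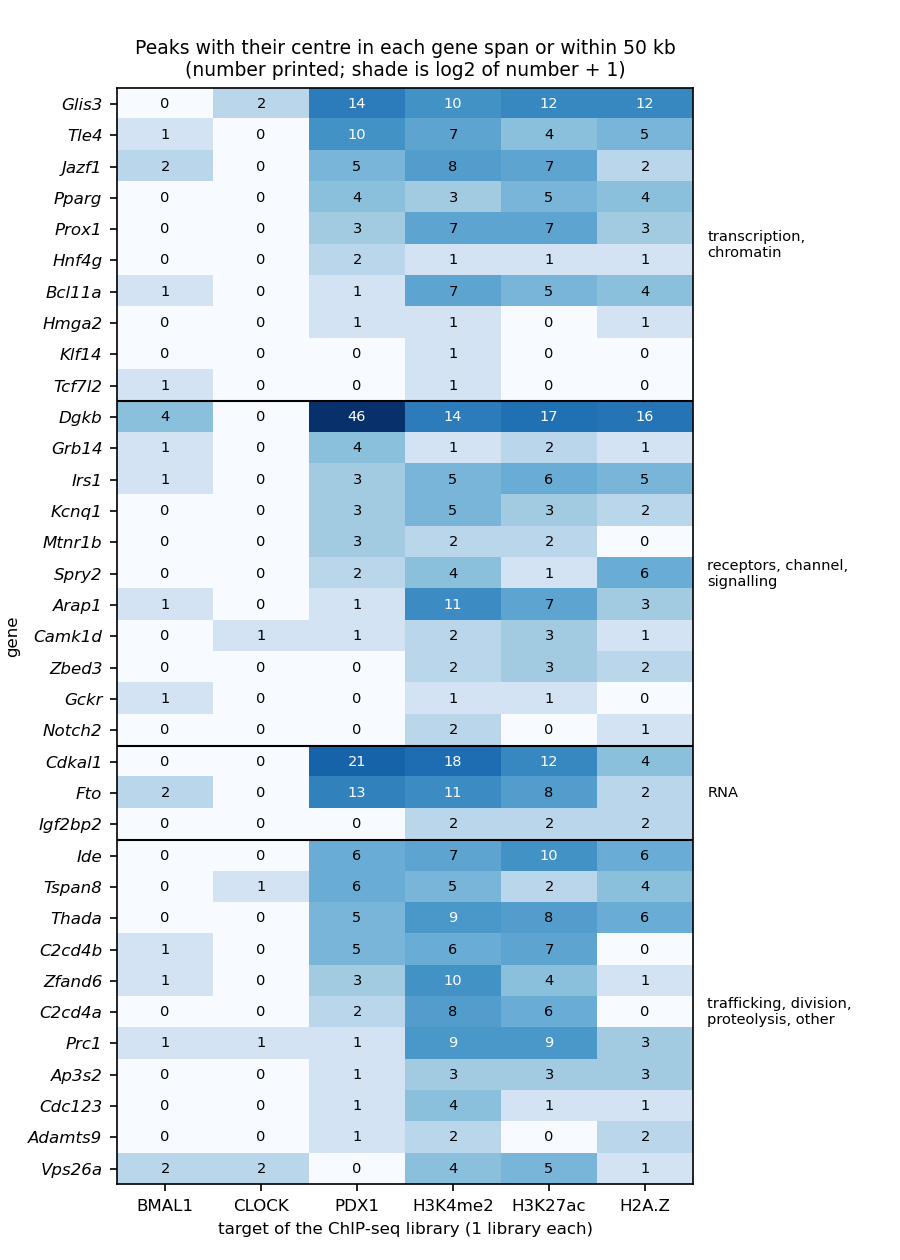
Number of peaks in the span of each gene or within 50 kb (printed in the cells, shaded by log2 of the number plus 1) for the 35 locus genes in rows, grouped by role, and the 6 targets in columns, with 1 library each. PDX1 ranges from 46 peaks at Dgkb to 0 at 7 genes, and CLOCK has a peak at 5 genes.

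Among the 10 genes of transcription and chromatin, 8 had PDX1, 7 had H3K27ac, 4 had BMAL1 and 1 had CLOCK. Glis3, a zinc-finger factor needed for beta-cell development and insulin transcription, had 14 PDX1 peaks, 12 H3K27ac intervals and 12 H2A.Z intervals, against medians of 9, 4 and 4 at its genes of like span. Of those 200 genes, 56, 40 and 19 had at least as many. The highest-scoring PDX1 peak at Glis3 (chr19:28669817-28670051, score 60) lay inside the gene and in both H3K4me2 and H3K27ac. Glis3 also held 2 CLOCK peaks inside the gene, with scores of 13 and 18 and no BMAL1. The stronger of them (chr19:28520753-28520957) overlapped a PDX1 peak of score 34 and an H3K27ac interval. As many as 2 CLOCK peaks were listed at 7 of its 200 genes of like span.

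Tle4, a Groucho-family corepressor, had 10 PDX1 peaks against a median of 3, a number reached by 8 of its 200 genes of like span. Those peaks scored 16 to 68 with a median of 33, against a median of 19 over the whole PDX1 list. The highest (chr19:14502249-14502483) lay inside the gene in H3K4me2 without H3K27ac, and 6 of the 10 were in neither mark. Its single BMAL1 peak scored 13 and lay in the gene on an H2A.Z interval. Jazf1, a zinc-finger cofactor of nuclear receptors, had 5 PDX1 peaks, close to its like-span median of 6, and 2 intragenic BMAL1 peaks of score 21 and 13 in neither active mark. Bcl11a, a zinc-finger repressor, had 1 PDX1 peak in both marks and 1 BMAL1 peak of score 14 in H3K4me2.

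The remaining transcription genes were without clock-factor peaks, apart from Tcf7l2. Prox1, a homeodomain factor, had 3 PDX1 peaks and 7 H3K27ac intervals, against medians of 1 and 3 at genes of like span. At least as many were at 51 and 20 of those 200 genes. Pparg, a nuclear receptor best known from fat cells, had 4 PDX1 peaks, of which 1 lay in both marks, and the first 2 of its 3 listed starts carried H3K4me2, H3K27ac and H2A.Z. Hnf4g, a nuclear receptor, had 2 PDX1 peaks of score 13 and 14 in neither mark. Hmga2, an AT-hook chromatin protein, had a single PDX1 peak of score 36 in unmarked chromatin and no H3K27ac. Klf14, a Krüppel-like factor, was the emptiest window of all, with 1 H3K4me2 interval of score 58 (chr6:30982394-30983019) and nothing else.

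Tcf7l2, the HMG-box effector of Wnt signalling and the best-known type 2 diabetes locus, was nearly bare in these cells. Its 292 kb window held 1 H3K4me2 interval of score 65 and 77.6 normalized tags at its first listed start (chr19:55741523-55743427), and no PDX1, CLOCK, H3K27ac or H2A.Z. Its 1 BMAL1 peak (chr19:55721257-55721587) had the lowest score of the list, 13, lay 20375 bp upstream and overlapped no other target. Of its 200 genes of like span, 94.0% had PDX1 with a median of 4 peaks, and 84.5% had H3K27ac. The promoter under the H3K4me2 interval is shown because it is the only marked site in the window. From RefSeq (GRCm38.p6, plus strand, 250 bases before to 50 after the start), it holds 34 CpG dinucleotides and neither CACGTG nor TAATTA, the core letters bound by PDX1 and other homeodomain proteins, and so has no capitals.
Tcf7l2 promoter, chr19:55741560-55741859: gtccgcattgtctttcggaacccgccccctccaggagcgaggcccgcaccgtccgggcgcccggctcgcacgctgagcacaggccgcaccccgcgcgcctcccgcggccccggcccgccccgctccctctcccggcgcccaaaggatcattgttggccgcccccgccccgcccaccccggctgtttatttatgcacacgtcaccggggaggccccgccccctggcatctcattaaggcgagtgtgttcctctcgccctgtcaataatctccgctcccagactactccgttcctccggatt

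**Figure D3:**
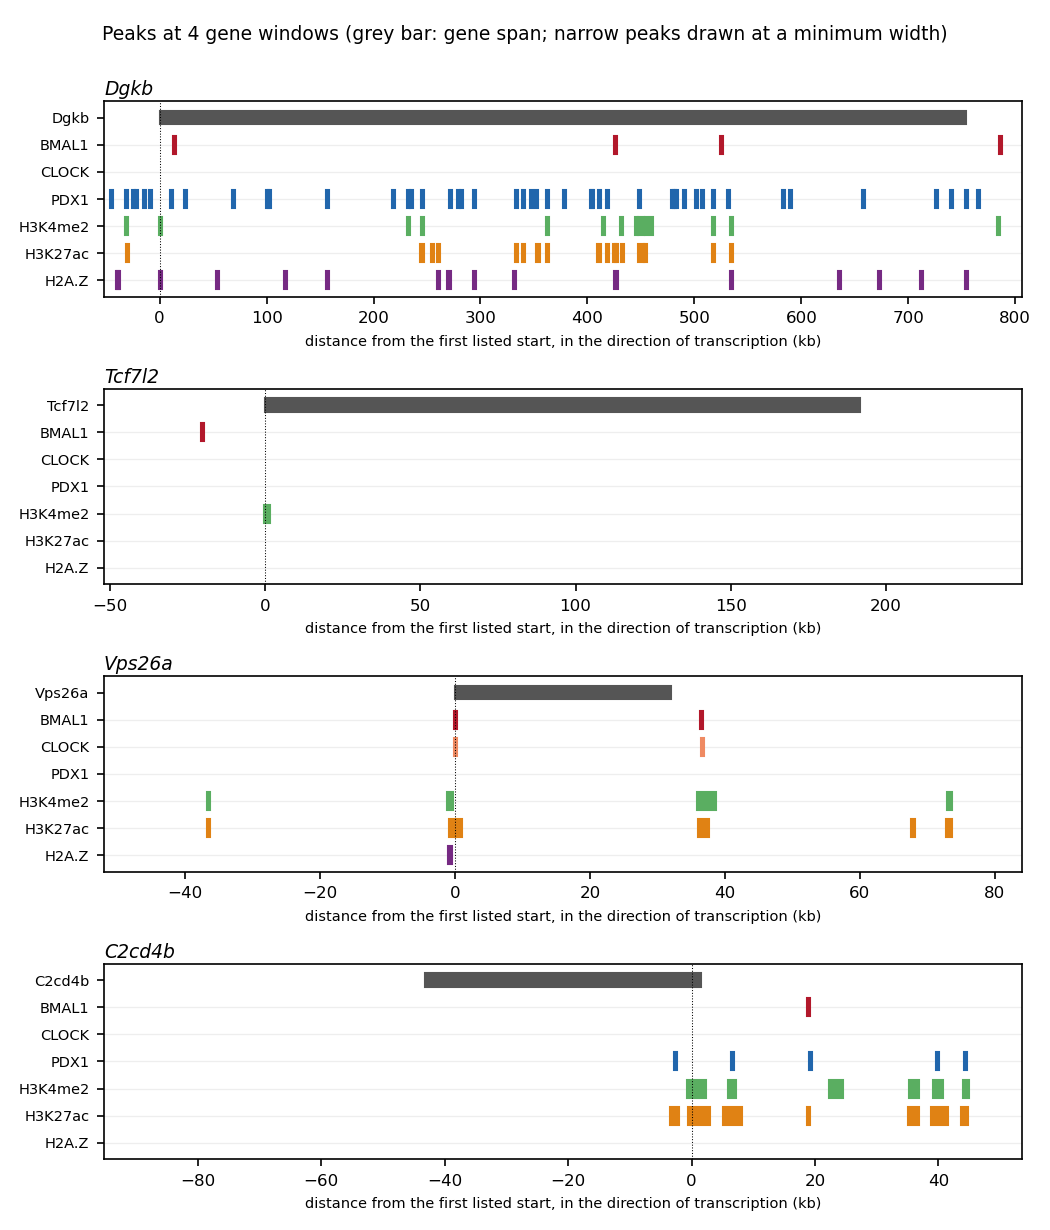
Peaks of the 6 targets (rows, drawn to scale apart from a minimum width) at Dgkb, Tcf7l2, Vps26a and C2cd4b against distance from the first listed start in kb, with the gene span as a grey bar and the window as the axis range. Dgkb carries 46 PDX1 peaks along its length, Tcf7l2 has 1 H3K4me2 interval and 1 BMAL1 peak, Vps26a has 2 paired BMAL1 and CLOCK sites, and the PDX1 peaks of C2cd4b lie near and beyond its start.

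Among the 11 receptors, channel and signalling genes, 8 had PDX1, 10 had H3K27ac, 5 had BMAL1 and 1 had CLOCK. Dgkb, a diacylglycerol kinase that removes the lipid messenger diacylglycerol, stood highest of all 35 for PDX1. It had 46 PDX1 peaks in a window of 854 kb, against a median of 13 at its 200 genes of like span, of which 1 reached that number. This was 5.39 PDX1 peaks per 100 kb, against 1.54 over chromosome 12 as a whole. Its peaks scored 13 to 96 with a median of 19, equal to that of the whole list, and 38 of them lay inside the gene.

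The PDX1 peaks at Dgkb were mostly outside active chromatin, as in the whole PDX1 list. Of the 46, 8 overlapped H3K27ac, 5 overlapped both marks and 37 overlapped neither. Over the whole list these shares were 21.1%, 14.8% and 70.0%. The highest-scoring PDX1 peak at Dgkb (chr12:38174791-38175025) overlapped neither mark and lay on H2A.Z. Dgkb also had 17 H3K27ac intervals, against a median of 5 and a 90th percentile of 17 at genes of like span, and 16 H2A.Z intervals, against 5 and 15. All of its 1516 H3K27ac normalized tags (tags scaled to a library of 10000000) were in intervals nearest to Dgkb itself, and none of these intervals lay at its start. It also had the most BMAL1 peaks of the 35, 4 of score 14 to 19, with no CLOCK, a number reached by 26 of its 200 genes of like span.

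Mtnr1b, the melatonin receptor found in islets, had 3 PDX1 peaks, against a median of 0 and a 90th percentile of 2. The PDX1 peaks of score 32 (chr9:15813216-15813450) and 21 lay in a pair of H3K27ac intervals, 49281 and 46185 bp beyond the gene, of which the first held 376 normalized tags (score 61). Its start had none of the 3 marks, and no H2A.Z was listed in the window. Irs1, the docking protein of the insulin receptor, had 3 PDX1 peaks, all outside both marks, beside 6 H3K27ac intervals with 1424 normalized tags, and 1 intragenic BMAL1 peak of score 13. Grb14, an adaptor that restrains the insulin receptor, had 4 PDX1 peaks in neither mark and 1 BMAL1 peak of score 13.

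Camk1d, a calcium and calmodulin-dependent kinase, had 1 PDX1 peak in a long window, against a median of 9, and 196 of its 200 genes of like span had at least as many. That PDX1 peak (score 19) coincided with the gene's only CLOCK peak (chr2:5286324-5286528, score 21) in an H3K27ac interval centred 7104 bp beyond the gene end. Arap1, an Arf GTPase-activating protein, had 1 PDX1 peak in both marks and 1 BMAL1 peak of score 13 in H3K27ac. Gckr, which restrains glucokinase in liver, had 1 BMAL1 peak of score 14, but that peak lay inside Ift172. Spry2, an inhibitor of receptor tyrosine kinase signalling, had 2 PDX1 peaks and a strong H3K27ac interval of 855 normalized tags at its start. Zbed3, a Wnt-pathway regulator that binds Axin, had 3 H3K27ac intervals and no factor, and Notch2, a receptor for Delta and Jagged ligands, had H3K4me2 and H2A.Z at its start with no factor and no H3K27ac.

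Kcnq1, a voltage-gated potassium channel, had the highest summed H3K27ac of the 35, 3156 normalized tags, but little of it was nearest to Kcnq1. A single interval of 15620 bp (chr7:143067301-143082921) held 3073 of these tags, and it was nearest to Trpm5, a cation channel of taste cells and beta cells. Intervals nearer to another gene made up 98.4% of the Kcnq1 sum. The highest-scoring PDX1 peak of the Kcnq1 window (chr7:143077330-143077564, score 65) lay in that same interval, and the 2 PDX1 peaks inside Kcnq1 scored 14 and 13. The next sums were 1570 for Ide, 1516 for Dgkb, 1514 for Arap1 and 1436 for Thada. Of these, 73.6% at Ide, 0.0% at Dgkb, 88.8% at Arap1 (led by an interval of 911 tags nearest to Stard10) and 90.04% at Thada (led by one of 603 tags nearest to Zfp36l2) were in intervals nearer to another gene.

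**Figure D4:**
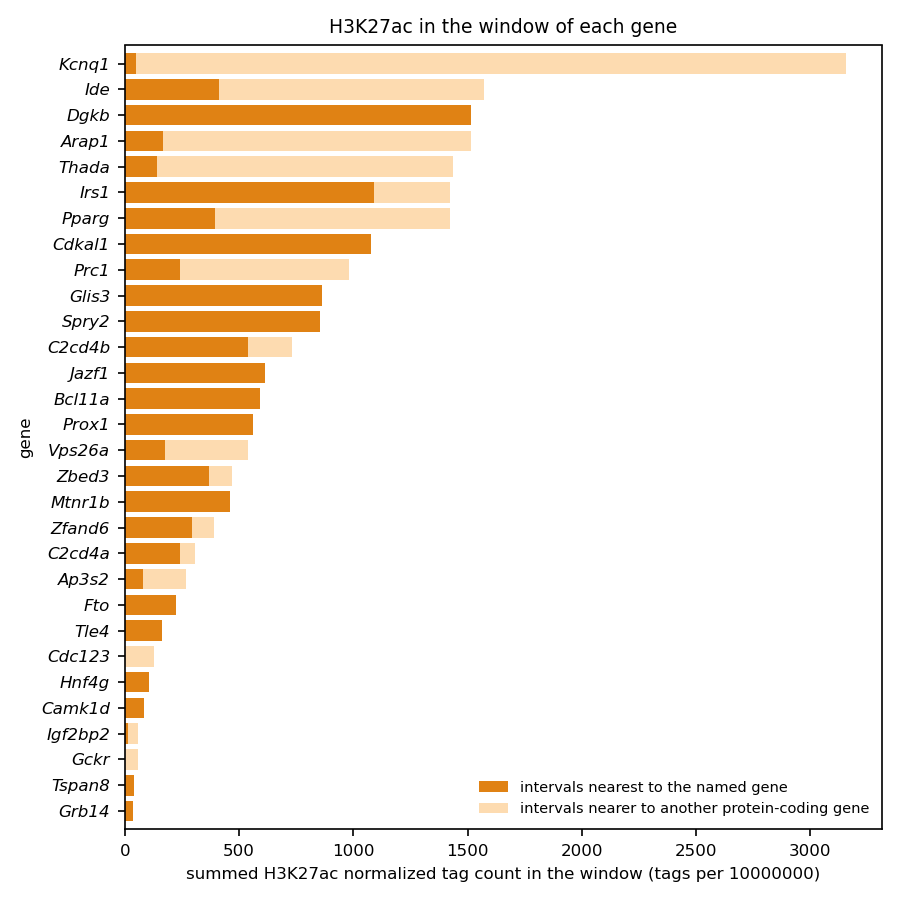
Summed H3K27ac normalized tag count in the window (tags per 10000000, horizontal axis) for the 30 locus genes with H3K27ac, split into intervals nearest to the named gene and intervals nearer to another protein-coding gene. Kcnq1 has the longest bar (3156), nearly all of it nearer to another gene, whereas the bar of Dgkb (1516) is wholly its own.

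The 3 genes that modify or bind RNA included a pair of the richest PDX1 windows. Cdkal1, a tRNA methylthiotransferase, had 21 PDX1 peaks, 18 H3K4me2 and 12 H3K27ac intervals, against medians of 12, 10 and 5 at its genes of like span. Of those 200 genes, 32, 28 and 56 had at least as many. Cdkal1 had 4 H2A.Z intervals, against a median of 5, and no clock-factor peak. Of its PDX1 peaks, 5 lay in both marks and 12 in neither. Fto, an RNA demethylase, had 13 PDX1 peaks, against a median of 8, and 8 H3K27ac intervals, against 4. At least as many were at 35 and 60 of its 200 genes of like span. The highest-scoring PDX1 peak at Fto (chr8:91709978-91710212, score 62) lay 41662 bp beyond the gene in H3K4me2, H3K27ac and H2A.Z. Fto had 2 BMAL1 peaks of score 13 and 15 in neither active mark. Igf2bp2, an mRNA-binding protein, had no factor peak, and 86.5% of its genes of like span had PDX1.

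Cdkal1 was the only one of the 32 genes with a listed start that had PDX1 within 1 kb of it, as did 3.09% of 17460 other genes. The promoter is shown because a TAATTA (capitals) lies 20 bp from the centre of that PDX1 peak, 70 bases before the start, under H3K4me2, H3K27ac and H2A.Z together. TAATTA, which reads the same on both strands, was in 4.53% of all 21263 listed promoters and in 26.5% of the 166 promoters that a PDX1 peak overlapped. Among the locus genes it was also in promoters of Camk1d and Zfand6, which no PDX1 peak overlapped.
Cdkal1 promoter, chr13:29855624-29855923, minus strand: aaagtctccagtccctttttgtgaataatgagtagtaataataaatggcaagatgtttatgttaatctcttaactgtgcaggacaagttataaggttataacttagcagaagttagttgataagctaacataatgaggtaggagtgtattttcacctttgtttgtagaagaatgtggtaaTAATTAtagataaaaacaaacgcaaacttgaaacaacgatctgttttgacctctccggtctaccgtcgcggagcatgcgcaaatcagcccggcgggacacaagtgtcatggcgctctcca

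Among the 11 genes of trafficking, division, proteolysis and other functions, 10 had PDX1, 10 had H3K27ac, 4 had BMAL1 and 3 had CLOCK. Vps26a, a subunit of the retromer that returns cargo from endosomes, was the only one of the 32 genes with BMAL1 or CLOCK within 1 kb of a start, as did 2.19% of other genes for BMAL1 and 2.59% for CLOCK. At its start the BMAL1 peak (chr10:62486550-62486880) scored 18 and the CLOCK peak (chr10:62486654-62486858) scored 21, both in H3K27ac. A second pair in the window was stronger, with a BMAL1 score of 38 (chr10:62450076-62450406, rank 76 of 4125) and a CLOCK score of 42 (chr10:62450013-62450217, rank 74 of 1378), in both active marks. That second pair lay inside Supv3l1, an RNA helicase gene. Vps26a had no PDX1 peak.

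The Vps26a promoter is shown because 2 of its E-boxes lie near the centres of the clock-factor peaks at its start. RefSeq (GRCm38.p6) lists 2 starts, and 3 different CACGTG matches (capitals below, the same on both strands) fall in their promoters. In the promoter of the downstream start, the matches begin 175 and 151 bases before the start, 14 and 10 bp from the CLOCK peak centre and 56 and 32 bp from the BMAL1 peak centre.
Vps26a promoter, downstream start, chr10:62486549-62486848, minus strand: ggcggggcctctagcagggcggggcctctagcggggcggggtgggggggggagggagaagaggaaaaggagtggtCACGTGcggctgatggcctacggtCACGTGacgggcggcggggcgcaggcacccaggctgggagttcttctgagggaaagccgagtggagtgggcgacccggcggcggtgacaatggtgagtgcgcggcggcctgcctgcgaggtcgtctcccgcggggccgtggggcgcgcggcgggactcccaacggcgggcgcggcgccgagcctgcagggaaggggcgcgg
The promoter of the upstream start shares the first of these and holds a further one, 228 bp from the CLOCK peak centre.
Vps26a, further match, chr10:62486970-62486999, minus strand: cgcacggctcgtCACGTGacaactagctct

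CACGTG was in a promoter of 4 more of the 32 genes, and no clock-factor peak overlapped it there. These 4 matches are shown with 12 bases on each side for comparison with Vps26a.
Arap1, chr7:101348054-101348083, plus strand: gtcccccggtgtCACGTGgggcgggcggaa
C2cd4a, chr9:67832406-67832435, minus strand: agcaaatccatcCACGTGgcagagggacct
Irs1, chr1:82291537-82291566, minus strand: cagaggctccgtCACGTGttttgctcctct
Tle4, chr19:14598376-14598405, minus strand: acgccctgtcccCACGTGggcctagcctgc
The nearest BMAL1 peak centre was 21106 bp away at Arap1, 54008 bp at C2cd4a, 21362 bp at Irs1 and 59562 bp at Tle4. In all, 5 of the 32 locus genes (15.6%) had CACGTG in a listed promoter, against 9.67% of genes of like span and 8.90% of other genes. It was in 7.84% of all listed promoters, and in 64.2% of the 81 promoters that both a BMAL1 and a CLOCK peak overlapped.

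Prc1, which bundles microtubules in cytokinesis, had overlapping BMAL1 and CLOCK peaks of score 14 each in both active marks (BMAL1 at chr7:80324082-80324412), but inside the neighbouring gene Rccd1. Its 1 PDX1 peak scored 19, lay in neither mark and was also inside Rccd1, 330 bp beyond Prc1, so none of the factor peaks in the window was nearest to Prc1. Its window had 9 H3K27ac intervals, against a median of 2, and 75.5% of their tags were nearer to other genes. Tspan8, a tetraspanin of the cell surface, had 6 PDX1 peaks, against a median of 1, a number reached by 3 of its 200 genes of like span. The highest of them (chr10:115824877-115825111) had the top PDX1 score of all 35 windows, 111, rank 233 in the list, and lay inside the gene with no mark. Tspan8 also had a CLOCK peak of score 17 in H3K4me2, 26089 bp upstream.

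C2cd4a and C2cd4b encode related nuclear proteins, lie 69599 bp apart and share part of their windows. C2cd4b had 5 PDX1 peaks, against a median of 1, and all 5 overlapped H3K27ac. The highest (chr9:67778547-67778781, score 64) was overlapped by a BMAL1 peak of score 13, the only BMAL1 peak of the 35 windows on a PDX1 peak. The H3K27ac interval there (chr9:67778150-67778650, 11.9 normalized tags) reached this PDX1 peak but not its centre. C2cd4a had 2 PDX1 peaks, both in both marks, and these are the same 2 that count for C2cd4b. The start of C2cd4b carried H3K4me2 and H3K27ac, that of C2cd4a H3K4me2 without H3K27ac, and neither window had H2A.Z.

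Ide, the insulin-degrading enzyme, had 6 PDX1 peaks, against a median of 2, with 3 in both marks, and none inside the gene. The highest (chr19:37242756-37242990, score 70) lay in an H3K27ac interval of 574 normalized tags nearest to Marchf5. Thada, a gene first known from rearrangements in thyroid adenoma, had 5 PDX1 peaks, against a median of 6. Zfand6, a zinc-finger protein that binds ubiquitin, had 3 PDX1 peaks, 2 of them in both marks, and a BMAL1 peak of score 13 in neither. Ap3s2, a subunit of the AP-3 adaptor, had 1 PDX1 peak in both marks. Cdc123, an assembly factor for translation initiation, and Adamts9, a secreted metalloprotease, each had 1 PDX1 peak in neither mark, and Adamts9 had no H3K27ac.

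**Figure D5:**
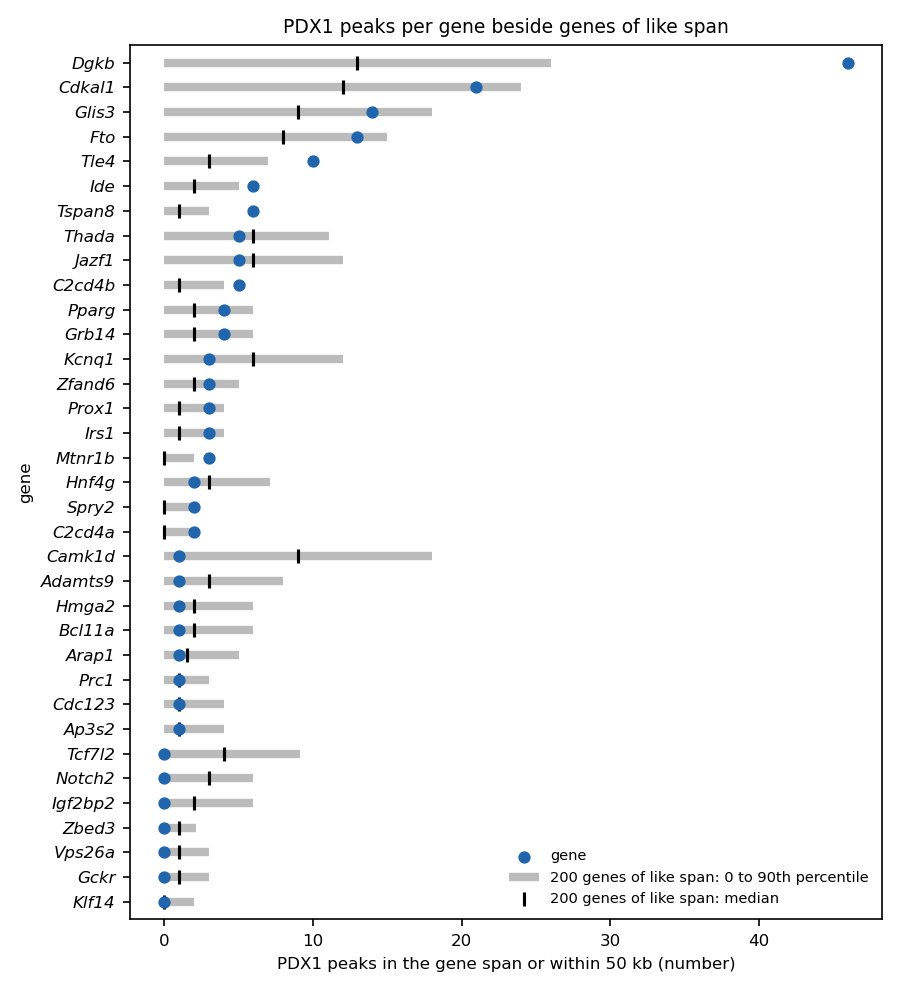
PDX1 peaks per window (number, horizontal axis) for each of the 35 locus genes, with the median (tick) and the range to the 90th percentile (grey bar) of its 200 genes of like span. C2cd4b, Dgkb, Ide, Mtnr1b, Tle4 and Tspan8 lie beyond their grey bars, and 7 genes are at 0.

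More PDX1 peaks than the 90th percentile of genes of like span were found at 6 of the 35 genes, namely C2cd4b, Dgkb, Ide, Mtnr1b, Tle4 and Tspan8, against 7.73% of the genes of like span themselves. At the other end, 7 genes had none, and for Tcf7l2, Notch2 and Igf2bp2 the median of genes of like span was 4, 3 and 2. For H2A.Z the 5 genes beyond the 90th percentile were Dgkb, Glis3, Ide, Irs1 and Spry2 (8.07% of genes of like span). For H3K4me2 the 4 were Arap1, C2cd4a, Prc1 and Zfand6 (8.23%), and for H3K27ac the 3 were Ide, Prc1 and Prox1 (8.74%). Vps26a lay beyond it for BMAL1 (5.03%), and Glis3 and Vps26a for CLOCK (2.31%). These are counts of 1 to 6 of 35 genes, too few to set the list apart, and they describe single windows.

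The 166 different PDX1 peaks of the 35 windows lay mostly outside the active marks, as in the whole list. Of them 33 (19.9%, Wilson 95% interval 14.5 to 26.6%) overlapped both H3K4me2 and H3K27ac, against 14.8% of all PDX1 peaks. A further 13 lay in H3K27ac alone, 16 in H3K4me2 alone and 104 (62.7%, interval 55.1 to 69.7%) in neither, against 70.0% of the whole list for neither. In H3K27ac with or without H3K4me2 lay 46 (27.7%, interval 21.46 to 34.96%), against 21.1% of the whole list. These intervals cover counting error only, and 46 of the 166 peaks came from the single Dgkb window. In genes, 18 of 35 (51.4%) had a PDX1 peak in both marks, against 36.5% of genes of like span and 22.0% of all others. With the upper 50% of each list by score, 6 genes had one, 17.1% against 16.7% of genes of like span. With a fold over input of at least 8, 3 genes had one, 8.57% against 4.49%. With an overlap of 50% of the PDX1 peak, 17 genes had one, 48.6% against 34.3%. In windows of 10 and 100 kb the shares were 34.3% against 27.3% and 62.9% against 45.9%.

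All PDX1 peaks lay outside both marks at 7 genes, Adamts9, Cdc123, Grb14, Hmga2, Hnf4g, Irs1 and Prc1. Adamts9, Cdc123, Hmga2 and Prc1 had 1 PDX1 peak each, and 70.0% of the whole PDX1 list lay in neither mark. The share of such genes among genes of like span was not counted. PDX1 and a clock factor met at 3 genes, with BMAL1 at C2cd4b and with CLOCK at Camk1d and Glis3. Of the 20 BMAL1 peaks, 3 overlapped CLOCK, 6 overlapped H3K27ac and 13 lay in neither active mark. Over the whole BMAL1 list, 6.3% overlapped CLOCK and 18.3% overlapped H3K27ac. The Wilson intervals of the 20 peaks held both (5.24 to 36.04% and 14.55 to 51.9%). They treat peaks of the same window as independent. Of the 7 CLOCK peaks, 5 overlapped H3K27ac and 3 overlapped BMAL1. Over the whole CLOCK list these shares were 62.8% and 18.7%, also inside the intervals (35.89 to 91.78% and 15.82 to 74.95%). With 7 peaks the intervals are too wide to compare the windows with the whole list. PDX1 overlapped 1 of the 20 BMAL1 and 2 of the 7 CLOCK peaks, against 5.14% and 19.4% of the whole lists.

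The starts of the locus genes most often carried H3K4me2, then H2A.Z, then H3K27ac. Within 1 kb of a listed start, 27 of the 32 genes with one (84.4%) had H3K4me2, against 71.1% of genes of like span and 56.4% of other genes. H2A.Z was there at 21 (65.6%), against 45.2% and 33.4%, and H3K27ac at 15 (46.9%), against 49.0% and 40.7%. Both H3K4me2 and H3K27ac were at the starts of 15 genes, against 45.6% of genes of like span and 37.5% of others. When the interval had to overlap the promoter itself, H3K4me2 was at 59.4% of the locus genes and 58.0% of genes of like span, and H2A.Z at 43.8% and 29.5%, so the H3K4me2 difference was seen with the wider distance alone. With 1 library per mark, these shares are given without a test.

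H3K4me2 without H3K27ac was at the starts of 12 genes (37.5%), against 25.5% of genes of like span and 18.9% of other genes. These were Adamts9, Arap1, Bcl11a, C2cd4a, Camk1d, Dgkb, Gckr, Hmga2, Igf2bp2, Notch2, Tcf7l2 and Zfand6. The H3K4me2 interval at Gckr was centred 1672 bp from its start, inside the neighbouring gene Fndc4. None of the 3 marks was at the starts of Ide, Mtnr1b and Tspan8 (9.38%), against 23.8% and 38.9%. All 3 were among the 6 genes beyond the 90th percentile for PDX1, an overlap not counted for genes of like span. Grb14 and Ap3s2 had H2A.Z alone at the start. The listed promoters with H3K4me2 held a median of 23 CpG dinucleotides (34 promoters), against 5.5 without it (12 promoters), and in other genes the medians were 21 and 3.

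Some counts hung on the edge of the window. The PDX1 peaks just inside 50 kb were 49281 bp from Mtnr1b (score 32) and 49737 bp from Spry2 (score 25), and those just outside were 51783 bp from Klf14 (score 15) and 51868 bp from C2cd4a (score 64, the same peak that counts for C2cd4b). The nearest BMAL1 peaks outside were 52120 bp from C2cd4a and 52582 bp from Spry2, with scores of 13 and 15.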

How the data were processed

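The submitters' processing notes name Bowtie 1.1.1, HOMER and the mouse build mm10. Per the file headers, the authors required a fold over input of at least 4, used factor settings for BMAL1, CLOCK and PDX1 and histone settings for the 3 marks, and deposited for each peak a score, a ratio of tags over input and a signal, the normalized tag count scaled to 10000000 tags. The scores and folds are the authors' own values per peak. The H2A.Z header names the input of BMAL1 and CLOCK whereas its description names the other, and the header was followed. Peak coordinates are those of the lists (mm10), and gene spans and promoters are from RefSeq GRCm38.p6, which has the same chromosome coordinates.

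Peak centres were counted in each gene span with 50 kb on either side, and an overlap was 1 bp or more. A peak counts for every gene whose window holds it. Comparison genes were the 200 nearest in span, and those for starts were chosen among genes with a listed start. A start was marked when an interval came within 1 kb, a distance chosen after seeing the files. Kcnq1, Klf14 and Hnf4g had no listed promoter. Members and lists were chosen with earlier results of these data known. Described in full were genes with BMAL1 or CLOCK, the 5 with most PDX1 and with most H3K27ac tags, those with no factor or no H3K27ac, and Tcf7l2, each by its highest-scoring peak; other peaks named were chosen after their values were seen. Counting was tested on simulated intervals with known answers. Python 3.11.15, NumPy 2.4.6, pandas 2.3.3 and statsmodels 0.14.6 were used. With 1 library per target, no test was made. A planned comparison with a list of other diabetes genes is not reported here.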

Additional observations from a re-analysis of the deposited data

How the results depend on the processing

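With 1 library per target, neither a library could be left out nor a spread estimated. No paired analysis was possible because each target had 1 library. Windows of 10 and 100 kb, assignment to the nearest gene, an overlap of 50% of the PDX1 peak and, for starts, overlap with the promoter itself left every count of locus genes they were applied to within 1.5 times of that reported, though the share of genes of like span moved too. Of these counts, and of the share of PDX1 peaks in H3K27ac (27.7%, held to its counting interval), 38 values stayed and 13 moved. With peaks inside the gene span alone, BMAL1 was at 9 genes (25.7%, against 19.9% of genes of like span) and CLOCK at 2 (5.71%, against 6.83%). With a fold over input of at least 8, BMAL1 was at 6 genes (17.1%, against 22.1% of genes of like span), CLOCK at 3 (8.57%, against 8.54%), H3K4me2 at 18 (51.4%, against 56.2%) and H2A.Z at 13 (37.1%, against 51.8%), so that BMAL1 and H3K4me2 fell below genes of like span. At this fold 13.5% of PDX1 peaks (95% interval 8.45 to 20.7%) lay in H3K27ac. PDX1 in both marks was at 3 genes (8.57%, against 4.49% of genes of like span). With the upper 50% of each list by score, BMAL1 was at 7 of 35 genes, against 20.4% of genes of like span, 19.4% of PDX1 peaks lay in H3K27ac and 6 genes had PDX1 in both marks. With a score of at least 20, BMAL1 and CLOCK were at 2 genes each (5.71%, against 2.89% and 4.56% of genes of like span). Fewer peaks enter under each of these settings by construction.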
